A study of Mus musculus with 10 samples.

Results

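The EGF receptor ligands of mammary tumours were examined in 10 RNA-seq libraries, 5 from tumours without the rhomboid protease RHBDL4 and 5 from wild-type tumours. The 7 genes were chosen by name as the ligands that bind the EGF receptor: Tgfa, Areg, Ereg, Btc, Hbegf, Egf and Epgn. All 7 were found among the 57010 Ensembl genes of the count table, and all 7 passed the low-count filter of the comparison. Knockout tumours carried the PyMT transgene with the genotype RHBDL4 -/-, and wild-type tumours carried PyMT with RHBDL4 +/+. All mice were untreated, and the series design gives 5 weeks after tumour onset for every tumour. In this model the MMTV promoter drives the polyoma middle T oncogene, mainly in mammary epithelium, so both groups are oncogene-driven and there is no normal mammary tissue to compare with. The samples were whole tumour tissue, so the counts hold RNA from tumour, stroma and blood cells together. The sources used here do not give strain, age, sex or the mammary gland sampled. In 3 pairs of libraries the name starts with the same number, and whether that number is an animal is not stated.

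EGF receptor ligands are made as membrane-spanning precursors and are released from the cell surface by proteases, chiefly the metalloproteases ADAM17 and ADAM10. In flies a rhomboid protease cuts the TGF-alpha-like precursor Spitz, and this made mammalian rhomboids, RHBDL4 among them, candidates for handling such precursors. In the mammary gland amphiregulin acts downstream of the oestrogen receptor in ductal growth, while TGF-alpha overproduction drives mammary tumours in mice. These data measure transcripts only, not precursor cleavage or secretion.

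Of the 7 genes, 4 lie in 1 cluster on chromosome 5 in the order Epgn, Ereg, Areg and Btc, over 375.5 kb (GRCm38, 91027464 to 91402994). Tgfa lies on chromosome 6 (86195223 to 86275719) and Egf on chromosome 3 (129677565 to 129755316). These positions are in GRCm38, whereas the counts were made on GRCm39, so they serve only to place the genes. A RefSeq table of the same build (GRCm38.p6) gave promoter windows for 5 of the 7 ligands. The 250 bases before the RefSeq start site are shown for Tgfa, Areg and Epgn. Tgfa levels were lower in every knockout tumour than in 4 of the 5 wild-type tumours. Areg and Epgn are members of the cluster that were high in the same tumours. Capitals mark matches, on either strand, to a TATA box (TATAAA), a cAMP response element (TGACGTCA), an AP-1 site (TGANTCA) or a GC box (GGGCGG).
Tgfa, chr6:86194972-86195221, plus strand: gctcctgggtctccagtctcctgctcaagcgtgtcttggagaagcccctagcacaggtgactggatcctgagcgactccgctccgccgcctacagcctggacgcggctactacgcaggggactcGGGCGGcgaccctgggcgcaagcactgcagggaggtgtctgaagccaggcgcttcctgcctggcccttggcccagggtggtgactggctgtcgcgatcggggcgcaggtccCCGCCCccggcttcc
Areg, chr5:91139349-91139598, plus strand: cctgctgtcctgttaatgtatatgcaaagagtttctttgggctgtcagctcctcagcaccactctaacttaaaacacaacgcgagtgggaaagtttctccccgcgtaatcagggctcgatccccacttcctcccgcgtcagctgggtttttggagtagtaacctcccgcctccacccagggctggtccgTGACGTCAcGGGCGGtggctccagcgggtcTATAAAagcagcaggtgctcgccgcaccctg
Epgn, chr5:91027267-91027516, plus strand: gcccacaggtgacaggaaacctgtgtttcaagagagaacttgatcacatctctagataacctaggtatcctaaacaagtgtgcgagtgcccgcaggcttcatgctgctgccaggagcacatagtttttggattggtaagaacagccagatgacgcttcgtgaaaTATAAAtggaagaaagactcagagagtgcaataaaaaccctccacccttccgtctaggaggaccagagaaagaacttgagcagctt

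The Tgfa window held 2 GC boxes, 126 and 15 bases upstream of the start site, and no TATA box. The Areg window held a TATA box 31 bases upstream, a GC box 52 bases upstream and a full cAMP response element 61 bases upstream. The Epgn window held a TATA box 86 bases upstream of the RefSeq start site and none of the other motifs. In the gene positions given above Epgn starts at 91027464, inside this window. From that start the TATA box is nearer, and the last bases of the window lie within the gene. No match in these windows overlapped another. Among 32536 promoter windows of that length, 12.3% held the TATA box, 1.56% the cAMP response element, 6.73% the AP-1 letters and 33.0% the GC box. These are matches of letters and were not tested as binding sites.

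Total counts ran from 25741463 to 43260948 per library. Levels are given as CPM (counts scaled to a common library total) divided by TMM factors, which adjust for differences in RNA make-up between libraries. Rhbdd1, the gene of RHBDL4, stood at 13.2 to 22.3 CPM in the knockout and 25.0 to 45.4 CPM in the wild-type libraries, where the lowest wild-type library was replicate 5. Without TMM scaling that library stood at 14.6 CPM, inside the knockout range of 13.4 to 23.9 CPM, so its Rhbdd1 matches its label only after scaling. Wild-type replicate 5 stood apart from the others. Its 10 luminal epithelial markers summed to 141 CPM, against 4313 to 7505 CPM elsewhere, including 29.1 CPM of Epcam, which was at 1043 to 1594 CPM in the other libraries. Its 8 skeletal muscle markers summed to 119800 CPM, against at most 1301 CPM elsewhere, and its 8 adipocyte markers to 11570 CPM, against at most 1857 CPM. Its TMM factor was 0.588, against 1.007 to 1.101 in the others. The ligands were therefore compared with and without this library. In such bulk samples, fewer cells of a type and less RNA per cell cannot be told apart.

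TGF-alpha, a growth factor that many epithelial tumours make for themselves, was the ligand with the smallest p between the groups. Tgfa (ENSMUSG00000029999) stood at 10.3, 13.8, 13.8, 11.1 and 11.5 CPM in knockout replicates 1 to 5. In wild-type replicates 1 to 5 it stood at 19.5, 44.3, 20.5, 38.6 and 2.80 CPM. All 5 knockout libraries lay in a narrow band below wild-type replicates 1 to 4, while wild-type replicate 5, the library with few epithelial transcripts, was the lowest of all. Over the 10 libraries the groups overlapped, with means of 12.1 ± 1.63 and 25.1 ± 16.6 CPM (SD, n = 5 each) and a log2 fold change of -1.06 ± 0.54 (SE, edgeR quasi-likelihood adjusted p = 0.669).

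Without wild-type replicate 5, and scaled again over the 9 libraries, the Tgfa means were 12.9 ± 1.76 CPM in knockout (SD, n = 5) and 32.3 ± 13.2 CPM in the remaining wild-type tumours (SD, n = 4). The knockout mean was 39.9% of the wild-type mean, and the groups did not overlap, with 14.8 CPM the highest knockout value and 20.4 CPM the lowest wild-type value. Such a separation with knockout lower was seen for 3.44% of the 19016 genes tested, and in either direction for 5.44%. Tgfa was the 1 ligand of 7 whose groups separated. With all 10 libraries 0 of 7 did, against 1.99% of all genes. The log2 fold change of -1.33 ± 0.26 (SE) had an unadjusted p of 0.000486 in edgeR but missed the threshold once adjusted over all genes (adjusted p = 0.205). DESeq2 called Tgfa lower (log2 fold change -1.33, adjusted p = 0.00139), where it called 0.972% of 19448 genes lower in knockout. Limma-voom with sample quality weights did not (adjusted p = 0.0881). With any 1 of the 9 libraries left out, the edgeR value stayed between -1.50 and -1.10 and the adjusted p between 0.142 and 0.575. The wild-type libraries themselves were spread, with replicates 2 and 4 well above replicates 1 and 3.

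Luminal markers overlapped between the groups in these 9 libraries, at 4313 to 7505 CPM in knockout and 4754 to 5968 CPM in wild type. The 8 fibroblast markers summed to 3291 to 6954 CPM in knockout, and to 170, 1450, 5596 and 5214 CPM in wild-type replicates 1 to 4. Wild-type replicates 3 and 4 had fibroblast sums within the knockout range and Tgfa above it. The 8 basal or myoepithelial markers had their highest sums in the same 2 libraries as Tgfa. These were 817 CPM in wild-type replicate 2 and 470.5 CPM in wild-type replicate 4, against 199 to 397 CPM in the other 7 of the 9. The groups overlapped for this list too. Among the 9 libraries, Krt14 and Krt5 alone had wild-type replicates 2 and 4 as their 2 highest. Krt17 and Trp63 were highest in wild-type replicate 2 but not second in wild-type replicate 4. Acta2, Myh11 and Mylk were highest of the 9 in knockout replicate 2, and Oxtr in wild-type replicate 1. Myh11 stood at 4.45 and 4.55 CPM in wild-type replicates 2 and 4, below every knockout library. Whether tissue make-up has a part in the Tgfa difference was not tested.

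**Figure D1:**
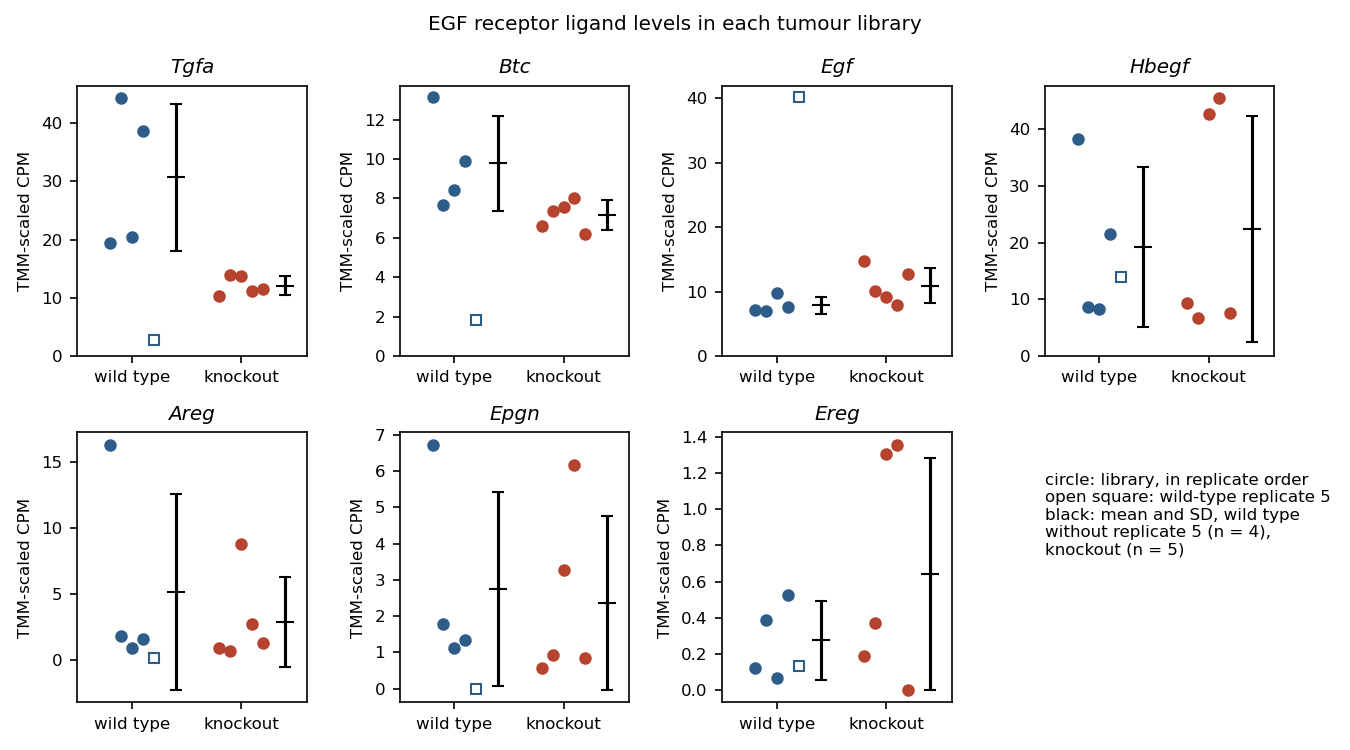
Level of each ligand in TMM-scaled CPM (y axis, scaled over all 10 libraries) in wild-type and knockout libraries, with 1 point per library in replicate order, an open square for wild-type replicate 5, and the mean and SD in black without that library. Tgfa lies at 10.3 to 13.8 CPM in all knockout libraries and at 19.5 to 44.3 CPM in wild-type replicates 1 to 4, whereas Hbegf, Areg and Epgn spread widely within both groups.

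Betacellulin and EGF were the ligands with the smallest spread over the 9 libraries without wild-type replicate 5 (2.08-fold and 2.16-fold from lowest to highest), and their differences between the groups were small. Btc, betacellulin, which also binds ERBB4, stood at 6.58, 7.38, 7.59, 8.04 and 6.22 CPM in the knockout libraries. In the wild-type libraries it stood at 13.1, 7.68, 8.46, 9.90 and 1.80 CPM. Wild-type replicate 5 was again the lowest library and wild-type replicate 1 the highest. Without replicate 5 the means were 7.64 ± 0.81 CPM (SD, n = 5) and 10.3 ± 2.52 CPM (SD, n = 4), with a log2 fold change of -0.43 ± 0.19 (SE, edgeR adjusted p = 0.426). The groups overlapped. With all libraries the Btc value was -0.20 ± 0.41 (SE, adjusted p = 0.886).

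Egf, which encodes the long precursor of epidermal growth factor itself, stood at 14.7, 10.1, 9.07, 7.95 and 12.7 CPM in the knockout libraries. In the wild-type libraries it stood at 7.09, 6.90, 9.79, 7.62 and 40.2 CPM. Wild-type replicate 5, the lowest library for Tgfa, Btc, Areg and Epgn, was the highest for Egf. It stood out even without TMM scaling (23.4 CPM of its total counts). The sums of the muscle, adipocyte, fibroblast, endothelial, macrophage, B cell and salivary gland markers were all at their highest in the same library. Its salivary gland sum of 158.6 CPM was nearly all Amy1 (157.9 CPM). The part of any of these tissues in its Egf level was not tested. This library set the sign of the Egf difference. The log2 fold change was -0.39 ± 0.52 (SE, edgeR adjusted p = 0.821) with it and 0.49 ± 0.22 (SE, adjusted p = 0.427) without it, where the means were 11.6 ± 2.89 CPM in knockout (SD, n = 5) and 8.27 ± 1.45 CPM in wild type (SD, n = 4). The groups overlapped in both cases. Antisense genes overlap Egf in the annotation, but none of those in the table exceeded 40 counts in any library, against 235 to 603 counts for Egf.

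Heparin-binding EGF, amphiregulin and epigen varied far more between tumours of 1 genotype than between the genotypes. Hbegf, whose product binds heparan sulphate and also serves as the diphtheria toxin receptor in humans, stood at 9.32, 6.67, 42.8, 45.5 and 7.57 CPM in the knockout libraries. In the wild-type libraries it stood at 38.4, 8.58, 8.37, 21.5 and 13.9 CPM. Knockout replicates 3 and 4 and wild-type replicate 1 were high, and wild-type replicate 4 was intermediate. The groups overlapped, with a log2 fold change of 0.24 ± 0.73 (SE, edgeR adjusted p = 0.922) without wild-type replicate 5 and 0.30 ± 0.67 (adjusted p = 0.895) with it. The sign of this small value turned when knockout replicate 3 (-0.13) or 4 (-0.20), or wild-type replicate 2 (-0.0095) or 3 (-0.012), was left out of the 9 libraries. Hbegf lies apart from the cluster, on chromosome 18 (GRCm38, 36504927 to 36515805).

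Areg, the oestrogen-responsive ligand of ductal growth, stood at 0.932, 0.682, 8.82, 2.77 and 1.32 CPM in the knockout libraries. In the wild-type libraries it stood at 16.3, 1.82, 0.923, 1.61 and 0.133 CPM. It was highest in wild-type replicate 1, then in knockout replicates 3 and 4, and spanned 23.4-fold over the 9 libraries without wild-type replicate 5. The log2 fold change of -0.81 ± 1.00 (SE, edgeR adjusted p = 0.778) in those 9 libraries rested on wild-type replicate 1, without which it was 1.01 (adjusted p = 0.679). With all 10 libraries the Areg value was -0.52 ± 1.11 (SE, adjusted p = 0.888).

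Epgn, epigen, stood at 0.559, 0.930, 3.27, 6.18 and 0.838 CPM in the knockout libraries. In the wild-type libraries it stood at 6.72, 1.77, 1.12, 1.33 and 0 CPM. The 3 highest libraries were again wild-type replicate 1 and knockout replicates 3 and 4. The count of 0 in wild-type replicate 5 allows a level of up to 0.200 CPM (3 counts, counting error only). The groups overlapped, with a log2 fold change of -0.19 ± 0.81 (SE, edgeR adjusted p = 0.945) without that library. It became 0.76 without wild-type replicate 1 as well (adjusted p = 0.741), and was 0.06 and 0.02 without knockout replicates 1 and 5. With all 10 libraries the Epgn value was 0.09 ± 1.02 (SE, adjusted p = 0.982).

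Hbegf, Areg and Epgn thus shared their 3 highest libraries among the 9, 2 from knockout and 1 from wild-type tumours. The same 3 libraries were the highest of the 9 for 1278 of 19016 genes, or 6.72%. Knockout replicates 3 and 4 carry the same leading number in their names. Of the 14 marker lists, 3 had the same 3 highest libraries by their sums: neutrophil, macrophage and luminal epithelium. The neutrophil list showed the widest gap, with a sum of 218 and 319 CPM in knockout replicates 3 and 4 and 1265 CPM in wild-type replicate 1, against 20.4 to 109 CPM in the other 6 of the 9 libraries. In wild-type replicate 1 that sum was nearly all S100a8, an inflammatory calcium-binding protein, at 1242 CPM. S100a9, the partner of S100a8, stood at 17.5, 24.0 and 16.3 CPM in knockout replicates 3 and 4 and wild-type replicate 1, against at most 9.82 CPM in the other 6. Mmp8, neutrophil collagenase, stood at 1.49, 2.41 and 0.995 CPM, against at most 0.426 CPM. Retnlg and Ly6g had the same 3 highest libraries, with wild-type replicate 1 barely above the next. For Retnlg that was 0.603 CPM, against 0.560 CPM in knockout replicate 1. For Ly6g it was 0.0603 CPM, against 0.0486 CPM in wild-type replicate 2. Csf3r and Cxcr2 did not share these libraries. Csf3r stood at 4.10 and 3.83 CPM in knockout replicate 3 and wild-type replicate 1, against 4.71 CPM in knockout replicate 2. Cxcr2 was at 0.907 CPM in knockout replicate 3, below knockout replicate 1 (0.932 CPM). Ly6g, the defining neutrophil surface marker, was at most 0.290 CPM in any library, and Ngp, a neutrophil granule protein, stood at 3.27 and 3.83 CPM in knockout replicates 3 and 4 and at 0.151 CPM in wild-type replicate 1. The 8 macrophage markers summed to 594, 743 and 616 CPM in knockout replicates 3 and 4 and wild-type replicate 1, against 290 to 594 CPM in the other 6. The 10 luminal markers summed to 5807, 7505 and 5968 CPM there, against 4313 to 5623 CPM. Of the luminal markers, only Krt18, Cdh1 and Cldn7 each had the same 3 highest libraries. Krt19 (41.2 CPM) and Esrp1 (266 CPM) were lowest of the 9 in wild-type replicate 1, and Prom1 (50.8 CPM) in knockout replicate 4. The 8 keratinocyte markers summed to 21.5, 103 and 24.6 CPM in knockout replicates 3 and 4 and wild-type replicate 1, and were highest in wild-type replicate 2 (147 CPM). The part of any of these cell types in the ligand levels was not tested.

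**Figure D2:**
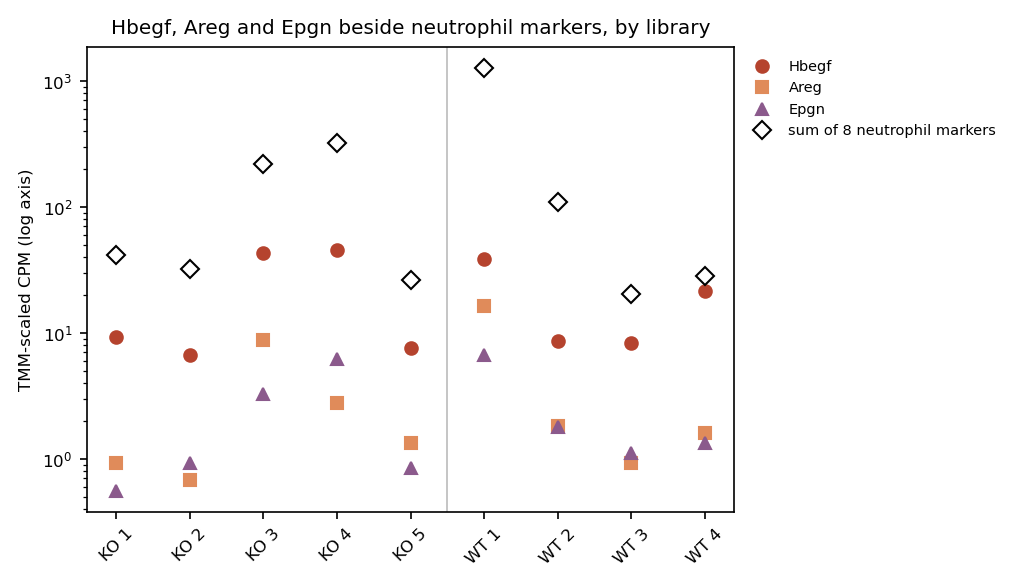
Hbegf, Areg and Epgn and the summed level of 8 neutrophil markers (TMM-scaled CPM, log axis) in knockout (KO) and wild-type (WT) libraries, without wild-type replicate 5. All 3 ligands and the marker sum are highest in KO 3, KO 4 and WT 1, where Hbegf reaches 38.4 to 45.5 CPM, and the marker sum of WT 1 is mostly S100a8.

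Ereg, epiregulin, was close to the limit of detection. It was read by 7, 12, 36, 45 and 0 counts in the knockout libraries and by 4, 16, 3, 19 and 2 counts in the wild-type libraries. The count of 0 in knockout replicate 5 allows a level of up to 0.0811 CPM. Knockout replicates 3 and 4 were the highest, at 1.31 and 1.36 CPM. The log2 fold change of 1.23 ± 1.03 (SE, edgeR adjusted p = 0.668) without wild-type replicate 5 was 0.81 without knockout replicate 3 and 0.74 without knockout replicate 4. An antisense gene that overlaps Ereg had up to 8 counts. With all 10 libraries the Ereg value was 1.33 ± 0.97 (SE, adjusted p = 0.701), and the groups overlapped in both comparisons.

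Across the family, edgeR called 0 of the 7 ligands in either comparison, against 0% of 18577 genes with all libraries and 0.0105% of 19016 genes without wild-type replicate 5. At an unadjusted p under 0.05 there were 0 of 7 with all libraries (background 7%). Without wild-type replicate 5 there were 3 of 7 (background 11.6%), which were Tgfa and Btc, lower in knockout (background 5.85%), and Egf, higher (background 5.74%). This count fell to 1 when knockout replicate 1, 2 or 5 or wild-type replicate 1 or 4 was left out. The 4 wild-type libraries carry only 2 leading numbers, and the count was also 1 with sums per number or with the number as a block. DESeq2 called 0 with all libraries (background 0.219%) and Tgfa alone without wild-type replicate 5 (background 1.68%). Limma-voom with sample quality weights called 0 in both (background 0.0915% and 0.752%). DESeq2 gave no p for Areg in either comparison, nor for Egf with all libraries. The numbers of ligands with lower and higher values were 4 and 3 in both comparisons. Their median log2 fold change was -0.19 without wild-type replicate 5, beside 0.03 for all genes tested, and -0.20 with it, beside -0.06.

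**Figure D3:**
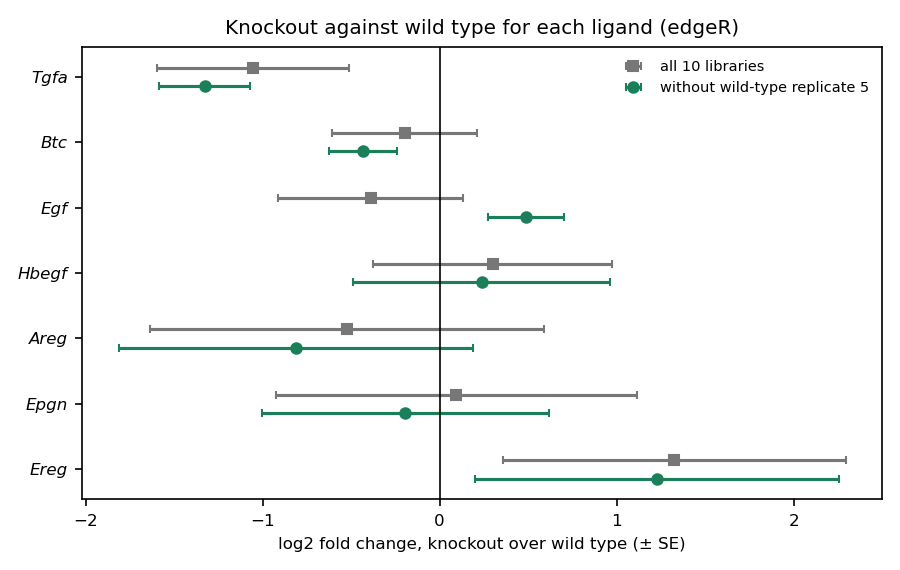
Log2 fold change of each ligand, knockout over wild type (x axis, ± SE from edgeR), with all 10 libraries (grey squares) and without wild-type replicate 5 (green circles). Tgfa is negative in both at -1.06 and -1.33, Egf changes sign from -0.39 to 0.49, and Areg, Epgn and Ereg have standard errors near 1.

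To compare the ligands with one another, levels were divided by the length of their exons, which ran from 1215 bases for Areg to 11275 bases for Egf. Over the 9 libraries without wild-type replicate 5, Hbegf had the highest mean at 4.34 ± 3.44 CPM per kb (SD, n = 9). Areg followed at 3.22 ± 4.35, Tgfa at 3.14 ± 1.93 and Btc at 1.84 ± 0.46 CPM per kb. Epgn (1.40 ± 1.31), Egf (0.85 ± 0.23) and Ereg (0.12 ± 0.12 CPM per kb) were the lowest. Hbegf stood at percentile 51.0 and Tgfa at percentile 42.8 of the tested genes by mean level per kb over all 10 libraries, so the family was expressed at middling to low levels, with Ereg at percentile 1.88.

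In the knockout group alone the order was the same. In wild-type replicates 1 to 4 Tgfa came first, then Areg and Hbegf, with the other 4 in the same order.

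Of the neighbours in the order over the 9 libraries, only Egf and Ereg separated in every library. Hbegf exceeded Areg in 8 of 9, Tgfa exceeded Btc in 8 of 9, Btc exceeded Epgn in 6 of 9 and Epgn exceeded Egf in 5 of 9. Tgfa exceeded Hbegf in 5 of the 9 libraries and Areg in 6 of 9, and Areg exceeded Egf in 5 of 9, so the high mean of Areg came from few tumours. Ereg was below every other ligand in 9 of 9, and Btc exceeded Egf in 9 of 9. With the longest transcript in place of all exons, 5 of the 7 ranks changed. The length of Tgfa fell from 6490 to 4527 bases and that of Egf from 11275 to 4761 bases, so Tgfa passed Areg, and Egf passed Btc and Epgn. Hbegf stayed first and Ereg last.

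The make-up of the ligand transcripts per kb differed from tumour to tumour. Shares were taken with the length of all exons only, and shares and leading ligands can change with the longest transcript. Tgfa held 50.6%, 35.0% and 38.5% of the summed level in wild-type replicates 2 to 4 and was the leading ligand in each. In wild-type replicate 1 it held 9.47%, and Areg led with 42.4%. In knockout replicates 1 to 5 Tgfa held 21.4%, 29.6%, 9.31%, 8.70% and 24.0%. Hbegf led in knockout replicates 1, 3 and 4, and Tgfa led in knockout replicates 2 and 5. Hbegf reached 48.0% in knockout replicate 4. The summed level of the 7 ligands was 7.39, 7.21, 22.8, 19.6 and 7.39 CPM per kb in the knockout libraries and 31.6, 13.5, 9.01, 15.5 and 7.41 CPM per kb in the wild-type libraries. It was high where Hbegf and Areg were high, in tumours of both genotypes. In wild-type replicate 5 Egf led with 48.1% and Tgfa held 5.83%.

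**Figure D4:**
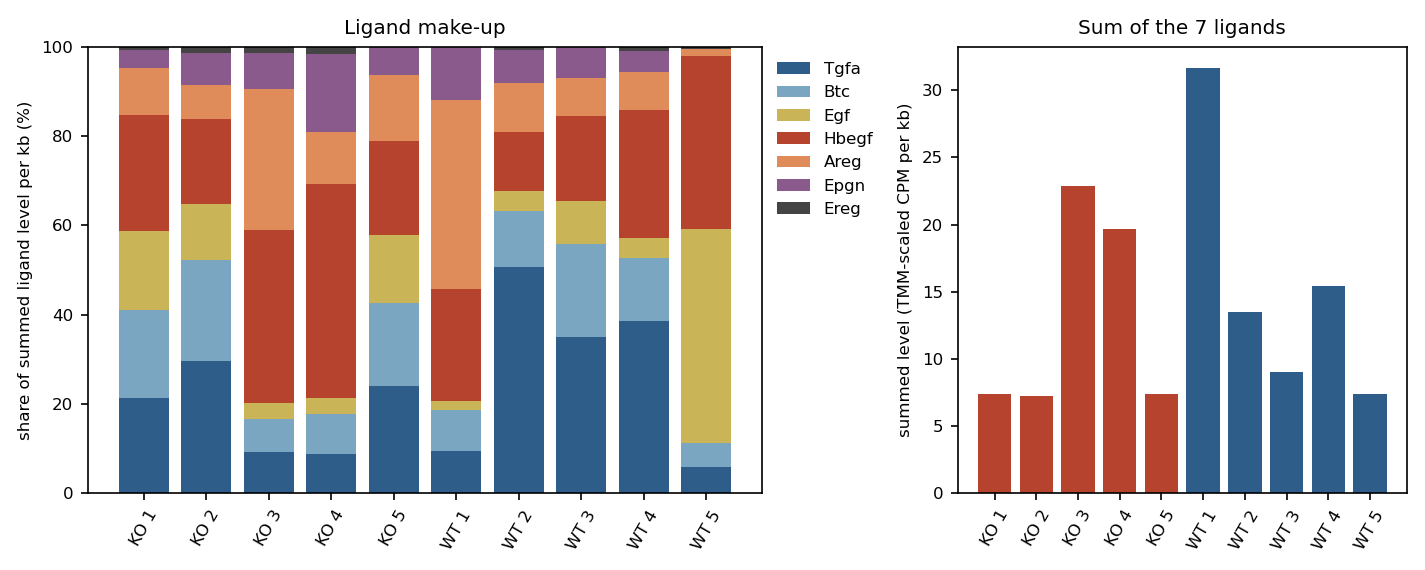
Share of each ligand in the summed ligand level per kb of exon (left, %) and that sum (right, TMM-scaled CPM per kb) in each knockout (KO) and wild-type (WT) library. Tgfa holds 35.0% to 50.6% in WT 2 to 4, 9.47% in WT 1 and 5.83% in WT 5. In the knockout libraries it holds 8.70% to 29.6%, so the groups overlap. The sum is highest in WT 1, KO 3 and KO 4 at 31.6, 22.8 and 19.6 CPM per kb.

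The other genes of the pathway, 70 genes in 6 lists around the ligands, showed no call by edgeR in either comparison (68 tested). Among all genes edgeR called 0% with all libraries and 0.0105% without wild-type replicate 5, so few calls could arise in any list. At an unadjusted p under 0.05 there were 3 with all libraries and 6 without wild-type replicate 5, beside 7% and 11.6% of all genes. The values that follow are without wild-type replicate 5 unless stated. Among the receptors, Egfr stood at 101 ± 19.9 CPM in knockout (SD, n = 5) against 85.2 ± 18.4 CPM in wild-type tumours 1 to 4 (SD, n = 4). Erbb2, the co-receptor without a ligand of its own, stood at 77.1 ± 16.7 and 63.3 ± 13.7 CPM, and Erbb3, the kinase-impaired neuregulin receptor, at 141 ± 22.5 and 146 ± 4.96 CPM. Erbb4 was low, at 4.90 ± 2.03 and 3.24 ± 1.82 CPM. The 4 receptors had log2 fold changes of -0.04 to 0.59, with adjusted p of 0.591 or more. Of the neuregulins, ligands of ERBB3 and ERBB4, 3 of 4 were tested and 0 were called. Nrg4 turned from -1.72 with all libraries to 1.21 without wild-type replicate 5, where it stood at 47.4 CPM.

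Among the 15 genes of ligand shedding and trafficking was Rhbdf1, which encodes an iRhom that escorts ADAM17 to the cell surface. Rhbdf1 stood at 114 ± 18.4 CPM in knockout (SD, n = 5) against 77.5 ± 3.03 CPM in the 4 wild-type tumours (SD, n = 4). The groups did not overlap, as for 5.44% of all genes tested. Of the genes with the smallest p in each pathway list, Rhbdd1 (the gene of RHBDL4), Timp3, Sos2 and Araf did not overlap either. Like Rhbdf1, they were picked by small p in this same comparison. Their separation therefore cannot be weighed against the share of all genes. The Rhbdf1 log2 fold change was 0.55 ± 0.12 (SE), which edgeR did not call (adjusted p = 0.252). DESeq2 called it (adjusted p = 0.0204), where it called 1.68% of all genes. Rhbdd1 itself, at -1.14 ± 0.16, was not called by edgeR either (adjusted p = 0.113), and was by DESeq2 (adjusted p = 5.12e-06). Timp3, the inhibitor of ADAM17, stood at 40.3 ± 20.6 and 23.0 ± 2.44 CPM (adjusted p = 0.367), and Rhbdl2, a rhomboid of the cell surface that can cleave EGF, at 3.97 ± 1.42 and 6.47 ± 1.58 CPM (adjusted p = 0.414). Both Rhbdf1 (135 CPM) and Timp3 (72.0 CPM) were highest in knockout replicate 3.

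Downstream, edgeR called 0 of 16 adaptor and kinase genes and 0 of 12 genes of receptor downregulation in either comparison. It also called 0 of 18 tested target and feedback genes. The share over all genes was 0% with all libraries and 0.0105% without wild-type replicate 5. Without wild-type replicate 5 the median log2 fold changes of these lists were 0.09, 0.07 and -0.02, beside 0.03 for all genes. With all libraries they were 0.10, 0.12 and 0.12, beside -0.06. Hras stood at 226 ± 57.5 and 176 ± 12.3 CPM (adjusted p = 0.442). Errfi1, the feedback inhibitor of the EGF receptor kinase, stood at 639 ± 490 and 346 ± 218 CPM (adjusted p = 0.586) and was highest in knockout replicates 3 and 1 and wild-type replicate 1. Ccnd1, cyclin D1, had the smallest p of the targets (98.0 ± 18.0 and 138 ± 19.1 CPM, log2 fold change -0.50 ± 0.15, adjusted p = 0.309). The ERK phosphatase genes Dusp5 and Dusp6 had log2 fold changes of 0.50 ± 0.40 and 0.22 ± 0.17, and Plaur, the urokinase receptor, of 0.60 ± 0.54 (adjusted p of 0.629 or more for the 3 genes).

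**Figure D5:**
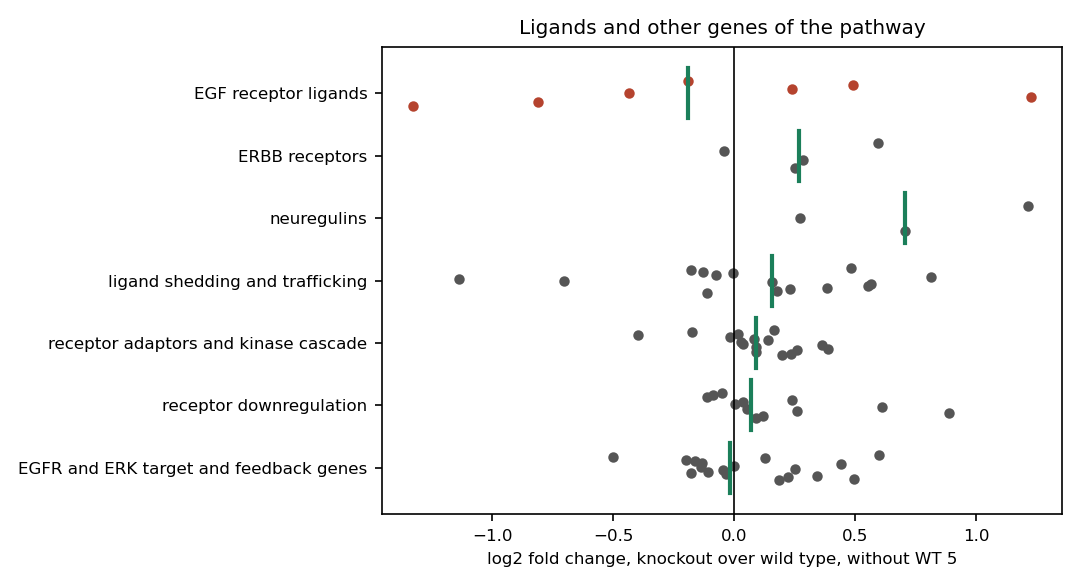
Log2 fold change, knockout over wild type without wild-type replicate 5 (x axis, edgeR), of each tested gene of the ligand family (red) and of 6 lists of the pathway (grey), with green bars for list medians. The medians of the 6 pathway lists lie between -0.02 and 0.71 and the ligand median at -0.19, while the ligands run from -1.33 for Tgfa to 1.23 for Ereg.

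For each ligand with a mean of at least 1 CPM, the 3 genes whose log2(CPM + 1) tracked it most closely over the 9 libraries were listed among 13169 other genes, as a description. With 9 libraries, high values of Pearson's r arise readily among so many genes. Tgfa was nearest to Dek, a chromatin protein (r = 0.953), Gemin2 (0.935) and Pik3cb, a catalytic subunit of phosphoinositide 3-kinase (0.924). Hbegf was nearest to the kinase Stk24 (0.978), the glutaredoxin Glrx (0.974) and the actin regulator Vasp (0.969). Areg was nearest to the lactate transporter Slc16a1 (0.976), Cnn2 (0.967) and Arap2 (0.962), and Epgn to Whamm (0.982), Csnk2a2 (0.980) and Rnf39 (0.976). Btc was nearest to the cytokine Tslp (0.970), the actin-nucleating subunit Actr3 (0.965) and the histone variant gene H2afy (0.965). Egf was nearest to Hist1h2al (0.969), Pdpk1 (0.949) and Cadps2 (0.941). No gene was named for more than 1 ligand. Over all 10 libraries 5 of these 18 genes stayed among the 3 nearest, Dek, Cnn2, Glrx, Csnk2a2 and Rnf39.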

How the data were processed

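RNA was measured in 5 knockout and 5 wild-type whole tumours. Per the labels' protocols, a column kit yielded the RNA, and stranded Illumina libraries followed poly(A) selection. The deposited values are unnormalized read counts for each gene. Tools listed in the submitters' processing notes are STAR, featureCounts, FastQC and DESeq2, with the build GRCm39. The sources used here do not give versions, annotation release or strand setting. Of 57010 genes, 52029 had a symbol. There were 0 count columns without a sample.

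The comparison of knockout and wild type used edgeR 4.0.16 (R 4.3.3; TMM, filterByExpr, robust quasi-likelihood F-test), adjusted by Benjamini-Hochberg over all genes tested, with calls at 0.05. The SE is the log2 fold change divided by the square root of F. Other settings tried were DESeq2 1.42.0, RLE scaling, limma-voom (limma 3.58.1) with sample quality weights or with the leading number as a block, sums per leading number, no count filter, at least 10 counts in every library, and leaving out each library. Exon lengths came from GENCODE (GRCm38). Tests were tried on simulated data. Libraries of a group all differed by more than sampling noise (lowest chi-square over its degrees of freedom 20.8). Nothing states that libraries are separate animals, so p-values measure only the spread between these samples. Each library has its own batch label, so batch cannot be told apart from library and could not be adjusted for between the groups. The rule names all 7 ligands, up to 4 genes per pathway list with the smallest p without wild-type replicate 5, and 3 nearest genes per ligand. Members, lists and the comparison without that library were chosen with earlier results of these data known.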

Additional observations from a re-analysis of the deposited data

Results flagged for a closer look

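Among 30 genes named here, each group of 5 libraries was searched for a library far from the rest on TMM-scaled CPM. The rule flags about 1 in 20 groups by chance where values follow a normal distribution. CPM were used without logs and the pathway genes were picked by small p, so that rate need not hold here. Of 60 groups, 14 had a flagged library, and in 8 of them it was wild-type replicate 5. Among the ligands, Areg was far above the rest in knockout replicate 3 (8.82 CPM, the next 2.77 CPM) and in wild-type replicate 1 (16.3 CPM, the next 1.82 CPM). Epgn was far above the rest in wild-type replicate 1 (6.72 CPM, the next 1.77 CPM), and Egf in wild-type replicate 5 (40.2 CPM, the next 9.79 CPM). In wild-type replicate 5, Nrg4 (47.4 CPM), Timp3 (52.0 CPM), Sos2 (73.4 CPM) and Araf (145 CPM) were also far above the rest, and Erbb3 (9.87 CPM), Rhbdf1 (46.0 CPM) and Ccnd1 (13.4 CPM) far below. In knockout replicate 3, Timp3 (72.0 CPM) and Hras (308 CPM) stood above the rest, and in wild-type replicate 1 Errfi1 did (636 CPM).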

How the results depend on the processing

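Tgfa kept its sign in all 17 alternatives with all libraries (-1.33 to -0.62) and in all 16 without wild-type replicate 5 (-1.50 to -1.10). Only DESeq2 without that library called it, making 1 ligand called. DESeq2 and limma-voom with quality weights called 43 and 17 genes with all libraries, where edgeR called 0, and 326 and 143 without wild-type replicate 5, where edgeR called 2. There, sums per leading number and that number as a block called 0. Leaving out each library gave 0 to 2 and 0 to 1 genes. Of the other pathway genes, DESeq2 called 1 and 2 and limma-voom 1 and 1, Rhbdd1 in each case and Rhbdf1 as the second.

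Signs that turned belonged to ligands that were not called, and the cause was not tested. With all libraries, quality weights gave -0.53 for Ereg, -0.27 for Hbegf, 0.50 for Egf and -0.43 for Epgn, and the leading number as a block gave 0.21 for Areg, 0.12 for Btc, -0.13 for Hbegf and 0.024 for Egf. Without wild-type replicate 5, Ereg (-0.59) and Hbegf (-0.29) turned with quality weights, and Hbegf with sums (-0.074) and the block (-0.10). Leaving out each library gave, with all libraries, -1.54 to 1.34 for Areg, -0.43 to 0.037 for Btc, -0.56 to 0.49 for Egf, -0.66 to 1.12 for Epgn and -0.13 to 0.78 for Hbegf. Without wild-type replicate 5 it gave -1.83 to 1.01 for Areg, -0.95 to 0.76 for Epgn and -0.20 to 0.81 for Hbegf. Ranks per length changed for 5 ligands with the longest transcript and for 0 to 4 when a library was left out. No paired analysis was possible because the labels give no number shared by knockout and wild-type libraries. Ereg had at most 45 counts in any library, and the part of depth in its error was not tested.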
